A study of Homo sapiens with 2 samples.

Results

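Adducin, spectrin, ankyrin and protein 4.1 build the meshwork of protein that lines the inner face of the cell membrane. The 8 genes described here were *ADD1*, *ADD2*, *ADD3*, *SPTAN1*, *SPTB*, *SPTBN1*, *ANK1* and *EPB41*, of 57773 genes counted in each library. They were chosen by name, with the read counts of these same libraries already known, and *ADD2* had stood out there for its difference between REH and 697. That difference is therefore given as a description. REH and 697 are established human lines of acute lymphoblastic leukemia of B-cell precursors, grown untreated in RPMI with serum, and a single RNA-seq library was made from each. As background, REH is known to carry the *ETV6/RUNX1* fusion and to have lost its other *ETV6* allele, whereas 697 lacks that fusion. With no replicate there was no test, the intervals cover counting error only, and each line stands for itself rather than for its leukemia subtype.

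In this skeleton, spectrin tetramers of alpha and beta chains cross-link short actin filaments. Adducin caps those filaments and recruits spectrin to them, protein 4.1 strengthens the spectrin-actin contact, and ankyrin ties beta spectrin to membrane proteins such as the anion exchanger band 3. The skeleton is best known from the red blood cell, which uses *SPTB*, *ANK1* and *EPB41* with alpha and beta adducin (*ADD1* and *ADD2*). Most other cells, lymphocytes included, rely on *SPTAN1*, *SPTBN1*, *ADD1* and *ADD3*.

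The libraries held 45188375 gene reads in REH and 41097497 in 697. A level is given as CPM, the reads of a gene per 1000000 gene reads after TMM scaling (a correction for differences in library composition), and 3 reads equal 0.0597 CPM in REH and 0.0812 CPM in 697. Of 10 B-precursor markers, 9 in REH and 10 in 697 had at least 10 reads, the missing gene being *VPREB1* in REH with 3 reads. The summed level of 11 erythroid markers was 27.8 CPM in REH and 1.60 CPM in 697. Almost all of the REH sum was *EPOR*, the erythropoietin receptor, with 1365 reads in REH and 31 in 697. The globin genes *HBB*, *HBA1*, *HBG1* and *HBD* and the hemoglobin chaperone *AHSP* were at 0 reads in both libraries, and *GATA1*, the erythroid master factor, had 1 and 5 reads. Reads that map to several places are not counted, so 0 reads for *HBA1* and *HBG1*, which have close paralogs, need not mean absence. The rest of the list was low, with *ALAS2* at 21 and 13 reads, *HBG2* at 5 and 3, *KLF1* at 5 and 4 and *HBA2* at 0 and 3. Of 6 neuronal markers, 5 were under 1 CPM in each library, and the 4 T-cell markers summed to 0.935 and 0.0271 CPM. The 4 myeloid markers summed to 260 CPM in REH and 2.03 CPM in 697. *MPO* had 12643 and 12 reads and *ITGAM* 403 and 0, while *CSF1R* had 30 and 61 and *LYZ* 1 and 2. In bulk RNA, fewer cells that use a gene and less RNA of it per cell cannot be told apart.

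A log2 ratio of REH over 697 of at least 2 in size was reached by 2 of the 8 genes, *ANK1* higher in REH and *ADD2* higher in 697. The same threshold was passed by 20.7% of the 19145 genes that reached 10 reads in either line, with 12.5% higher in REH and 8.15% higher in 697. Since the genes were picked with these ratios known, nothing is read from the count. All 8 members passed the minimum of 10 reads. The remaining 6 had log2 ratios of 1.00 or less in size, and their order from high to low was *ADD1*, *SPTBN1*, *EPB41*, *SPTB*, *ADD3* and *SPTAN1*.

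**Figure D1:**
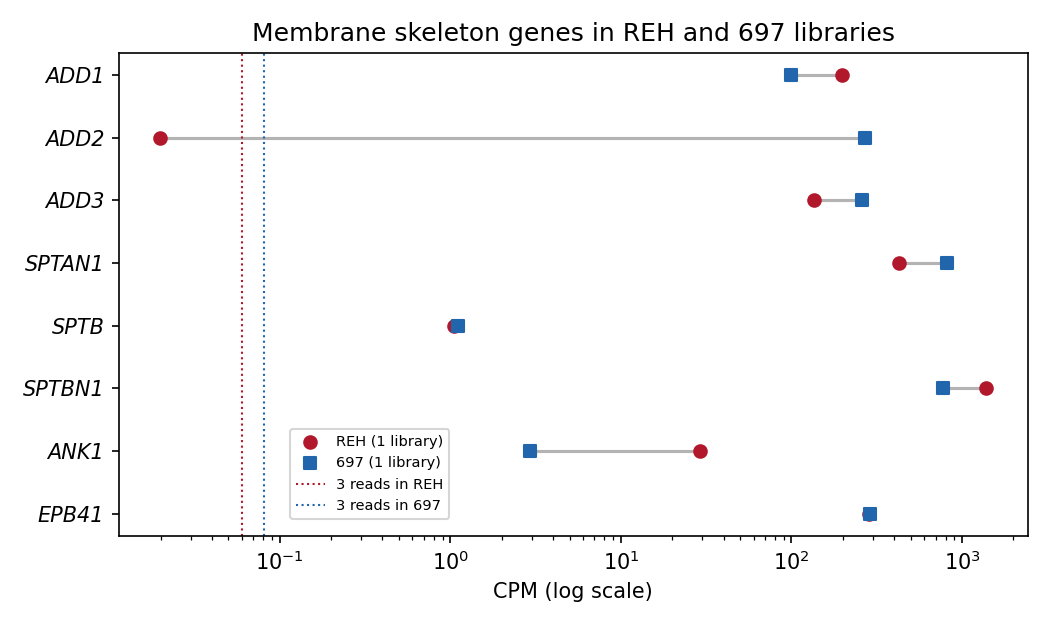
Level of each of the 8 genes in CPM (log axis) in the REH library (red circles) and the 697 library (blue squares), with the level of 3 reads as dotted lines. *ADD2* alone runs from below that level in REH (0.0199 CPM) to 270 CPM in 697, while *SPTB* and *EPB41* lie almost on top of each other.

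*ADD2* encodes beta adducin, the form of red cells and brain (ENSG00000075340, chromosome 2, 70607618 to 70768225, GRCh38). It had 1 read in REH and 9978 reads in 697, or 0.0199 and 270 CPM. In 697 this placed *ADD2* above 94.95% of the 13489 protein-coding genes tested, whereas the single REH read lay below the level of 3 reads. The log2 ratio was -13.14, with a 95% counting interval of -19.03 to -11.25, and its size depends on the reads added to each count. Only 0.0261% of the genes tested had a lower ratio. No exon of another counted gene overlaps its exons, and the 697 reads split evenly over the strand columns, with 5044 and 4934 reads.

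The bases just before the start of *ADD2* are shown because this gene was the member with reads in 697 and nearly none in REH, beside those of *ADD1*, a paralog with reads in both lines. *ADD3*, the other such paralog, is described after them. Each line gives the 250 bases upstream of the outermost RefSeq start (GRCh38.p14), 5′ to 3′ on the strand of the gene, with CG dinucleotides in capitals. The windows are chr2:70768201-70768450 on the minus strand for *ADD2* and chr4:2843594-2843843 on the plus strand for *ADD1*. The GENCODE start of *ADD2*, at 70768225, lies within its window, so the last bases of that line are inside the gene as placed above.

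ADD2: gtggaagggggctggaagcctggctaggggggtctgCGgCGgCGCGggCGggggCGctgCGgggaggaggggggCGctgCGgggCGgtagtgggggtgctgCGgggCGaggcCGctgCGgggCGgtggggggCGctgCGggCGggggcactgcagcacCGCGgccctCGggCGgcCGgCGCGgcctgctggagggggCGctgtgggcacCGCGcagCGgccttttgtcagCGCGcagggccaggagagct

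ADD1: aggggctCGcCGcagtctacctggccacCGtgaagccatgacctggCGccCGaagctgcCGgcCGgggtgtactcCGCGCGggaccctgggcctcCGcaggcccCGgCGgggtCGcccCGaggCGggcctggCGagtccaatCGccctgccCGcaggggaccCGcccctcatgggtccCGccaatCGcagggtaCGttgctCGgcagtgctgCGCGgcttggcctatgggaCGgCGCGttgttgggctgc

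Both stretches are rich in CG, with 31 dinucleotides for *ADD2* and 29 for *ADD1*. Over the whole RefSeq windows of 300 bases, which add the first 50 transcribed bases, the numbers were 34 and 36, against a median of 14 and a 90th percentile of 37 over 35116 windows of all genes. The GC content of these windows was 76.7% and 75.7%. Thus fewer CG were found in 84.4% of all windows than in that of *ADD2* and in 87.3% than in that of *ADD1*. Both windows were also searched on both strands for 3 motifs, and held none of them. The GATA motif, searched as GATAA, occurs in 22.7% of all windows. The E-box of E2A proteins, searched as CAGGTG, occurs in 20.6%. The RUNX motif, searched as TGTGGT, occurs in 13.1%. The second window of *ADD2*, chr2:70767666-70767965, held 24 CG and 1 such E-box. *ADD3* differed from both, as 2 of its 3 windows held 2 CG each, with a GC content of 32.0% and 42.0%, while the third held 33. Of the 8 genes, 7 had windows in the table, 13 in all. Windows of *ADD3*, *SPTB* and *SPTBN1* held GATAA, and windows of *ADD2*, *EPB41*, *SPTB* and *SPTBN1* held CAGGTG. None of the 13 held TGTGGT, which only 13.1% of all windows held and was the only RUNX form searched. A lack of RUNX sites is therefore not read from this. Gene counts do not tell which start is used.

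Most genes around *ADD2* were within the threshold, which 20.7% of all genes tested passed. Of 33 annotated genes that start within 500 kb, 10 were tested, and their median log2 ratio was -0.48. Only *PAIP2B* passed the threshold, with 0 reads in REH and 314 in 697 and a log2 ratio of at most -6.85, a bound that does not separate it from *ADD2*, and it starts 459 kb from *ADD2*. The nearest tested starts were those of *ANKRD53* (24 and 22 reads, 210 kb away) and *TGFA* (27 and 44 reads, 214 kb away on the other side). By distance between log2(CPM + 0.1) values over both libraries, the protein-coding genes most like *ADD2* were *MAGI1* (1 and 11997 reads, distance 0.27), *IRX2* (0 and 11397 reads, distance 0.32) and *LAPTM4B* (3 and 10036 reads, distance 0.41). With 2 libraries, this likeness says only that the levels are close.

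*ADD1* encodes alpha adducin, the partner that the beta and gamma forms pair with (ENSG00000087274, chromosome 4, 2843844 to 2930076). It had 9918 reads in REH and 3649 in 697, or 197 and 98.8 CPM. The log2 ratio was 1.00 (interval 0.94 to 1.05), with REH the higher library. The genes around *ADD1* lay on the same side. Of 12 tested genes within 500 kb, 11 had a log2 ratio above 0, with a median of 1.15, compared with 52.1% above 0 and a median of 0.05 over all genes tested. Among them were *HTT*, the huntingtin gene (8621 and 2061 reads, log2 ratio 1.62), *FAM193A* (4783 and 1490 reads, 1.24) and *RNF4* (4716 and 1473 reads, 1.23). The smallest of the 11 was that of *NOP14* (4965 and 2847 reads, 0.36). A pseudogene with 21 and 8 reads had an interval that included 0 (-0.28 to 2.33). The exception was *SH3BP2*, an adaptor protein gene, with 293 and 942 reads and a log2 ratio of -2.13.

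*ADD3* encodes gamma adducin, which takes the place of the beta form in most cells (ENSG00000148700, chromosome 10, 109996368 to 110135565). It had 6838 reads in REH and 9520 in 697, or 136 and 258 CPM, so that 697 was the higher library. The log2 ratio was -0.92 (interval -0.97 to -0.88). Of the adducins, *ADD1* was thus lower in 697 while *ADD3* and *ADD2* were higher there, under each scaling tried.

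To set paralogs side by side, reads were divided by the summed exon length of each gene (RPKM, the CPM of a gene per kb of exon). In REH the adducins reached 35.7 RPKM in all, of which *ADD1* made up 41.7%, *ADD3* 58.3% and *ADD2* 0.00440%. In 697 the total was 68.2 RPKM, of which *ADD1* made up 10.9%, *ADD3* 57.8% and *ADD2* 31.3%. The family total was therefore 1.91-fold higher in 697. The share of *ADD3* was nearly equal in the lines, while that of *ADD1* was lower in 697, where *ADD2* was counted. The level of alpha adducin relative to the sum of its possible partners, beta and gamma, was 0.716 in REH and 0.123 in 697. Length matters here, since with the longest annotated transcript in place of summed exons these values became 1.24 and 0.218, and the shares of *ADD3* became 44.7% and 54.8%.

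**Figure D2:**
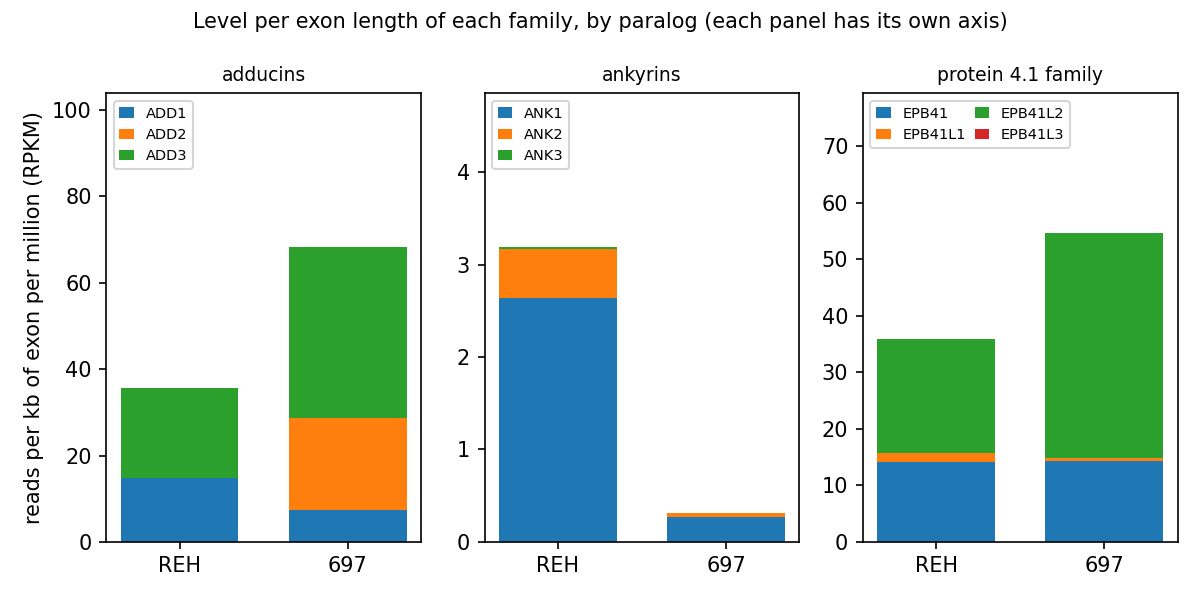
Stacked bars of the level per exon length (RPKM, linear axes that start at 0 and differ between panels) of each family in the REH and 697 libraries, by paralog. In 697 *ADD2* holds 31.3% of the adducin level, a segment nearly missing in REH, whereas *ANK1* holds most of the ankyrin level in both lines (82.9% in REH and 84.9% in 697).

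The alpha spectrin of non-erythroid cells, *SPTAN1* (ENSG00000197694, chromosome 9, 128552558 to 128633662), was among the most abundant members. It had 21601 reads in REH and 30293 in 697, or 430 and 820 CPM. The log2 ratio was -0.93 (interval -0.96 to -0.91), so the level was 1.91-fold higher in 697.

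The beta spectrin *SPTBN1* (ENSG00000115306, chromosome 2, 54456317 to 54671446) was the highest member in REH, at 69642 reads or 1385 CPM, above 99.9% of protein-coding genes. It had 28404 reads or 769 CPM in 697. The log2 ratio was 0.85 (interval 0.83 to 0.87), a 1.80-fold higher level in REH. *SPTBN1* and its binding partner *SPTAN1* thus differed in opposite directions, under each scaling tried. The erythroid beta spectrin *SPTB* (ENSG00000070182, chromosome 14, 64746283 to 64879907) was low in both lines, with 53 reads in REH and 41 in 697, or 1.05 and 1.11 CPM. Its log2 ratio of -0.08 had an interval of -0.69 to 0.55, so a difference was not detectable at this depth, and the ratio was above 0 without TMM scaling. Of its exons, 23.0% overlap those of *PLEKHG3* on the annotation, and the strand columns together held 106% (REH) and 117% (697) of the reads counted without strand. Per exon length it stood at 0.0713 RPKM in REH and 0.0750 RPKM in 697, far below *SPTBN1* at 75.0 and 41.6 RPKM.

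Of the other beta spectrins described here, *SPTBN4*, found at axon initial segments, had 233 and 36 reads in REH and 697 (log2 ratio 2.23, interval 1.74 to 2.80). *SPTBN5* had 22 and 14 reads, and its log2 ratio of 0.19 had an interval that included 0 (-0.82 to 1.29). Both were under 0.4 RPKM in each line, and thus lay below *SPTBN1* throughout.

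*ANK1* encodes the ankyrin first described in red cells (ENSG00000029534, chromosome 8, 41653220 to 41896741). It had 1459 reads in REH and 109 in 697, or 29.0 and 2.95 CPM, and REH was the higher library. The log2 ratio was 3.29 (interval 3.02 to 3.59), a 9.80-fold higher level in REH. The gene stood above 51.3% of protein-coding genes in REH and 23.1% in 697. *ANK2*, the ankyrin of heart and brain, had a similar pattern, with 1464 and 97 reads and a log2 ratio of 3.46 (interval 3.17 to 3.78). *ANK3*, the ankyrin of axon initial segments, had 23 reads in REH and 0 in 697, and only the lower bound of its log2 ratio, 2.08, is measured. Thus all 3 ankyrin genes were higher in REH. Their sum was 3.19 RPKM in REH and 0.316 RPKM in 697. Of the erythroid markers, *EPOR* alone passed the threshold toward REH (1365 and 31 reads). The others did not share this, with *ALAS2* at 21 and 13 reads, *GATA1* at 1 and 5 and *HBA2* at 0 and 3. In REH 10 of the 11 were under 1 CPM, and in 697 11 of 11. A part of erythroid cells in the *ANK1* difference was not tested. Over all genes tested, 52.1% had a log2 ratio above 0 and 20.7% passed the threshold. Of 12 tested genes within 500 kb of *ANK1*, 8 lay above 0 and 2 passed it. These were *NKX6-3* (66 and 8 reads) and *PLAT*, the tissue plasminogen activator (31 and 5 reads). Their log2 ratios were 2.52 (interval 1.54 to 3.87) and 2.07 (interval 0.81 to 3.91), so both intervals reached below the threshold.

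*EPB41* encodes protein 4.1R (ENSG00000159023, chromosome 1, 28887091 to 29120046). It had 14222 reads in REH and 10624 in 697, or 283 and 288 CPM. The log2 ratio of -0.02 (interval -0.06 to 0.01) did not differ from 0 beyond counting error, and without TMM scaling it was 0.28. Of its family, *EPB41L2*, the broadly expressed protein 4.1G, had 10478 and 15206 reads, or 208 and 412 CPM (log2 ratio -0.98, interval -1.02 to -0.95). *EPB41L1*, the neuronal 4.1N, had 732 and 165 reads (log2 ratio 1.70, interval 1.46 to 1.96). *EPB41L3* had 0 reads in both libraries. Per exon length, *EPB41* made up 39.5% of the family in REH and 26.3% in 697, next to 56.3% and 72.9% for *EPB41L2*.

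Within each library the members spanned a wide range of levels. In REH the order per exon length was *SPTBN1* (75.0 RPKM), *SPTAN1* (26.1), *ADD3* (20.8), *ADD1* (14.9), *EPB41* (14.2), *ANK1* (2.64), *SPTB* (0.0713) and *ADD2* (0.00157). In 697 it was *SPTAN1* (49.7 RPKM), *SPTBN1* (41.6), *ADD3* (39.4), *ADD2* (21.3), *EPB41* (14.4), *ADD1* (7.46), *ANK1* (0.268) and *SPTB* (0.0750). No neighbours in these orders had overlapping counting intervals, but the spread between cultures is unknown. *EPB41* has many annotated exons (19993 bases summed, 6388 in its longest transcript). With the longest transcript as length, it moved above *ADD1* and *ADD3* in REH (44.3, 38.1 and 30.8 RPKM) and above *ADD2* in 697 (45.0 and 29.1 RPKM).

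The rest of the skeleton was taken from a list of 50 genes ordered by role. Of these, 44 were tested, of which 7 were higher in REH, 3 were higher in 697 and 34 were within the threshold. That is 22.7% past it, compared with 20.7% of all genes tested, and the median log2 ratio was -0.23 against 0.05 over all genes. The spectrin, ankyrin and 4.1 genes of the list, given above, contributed 3 of these 10.

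**Figure D3:**
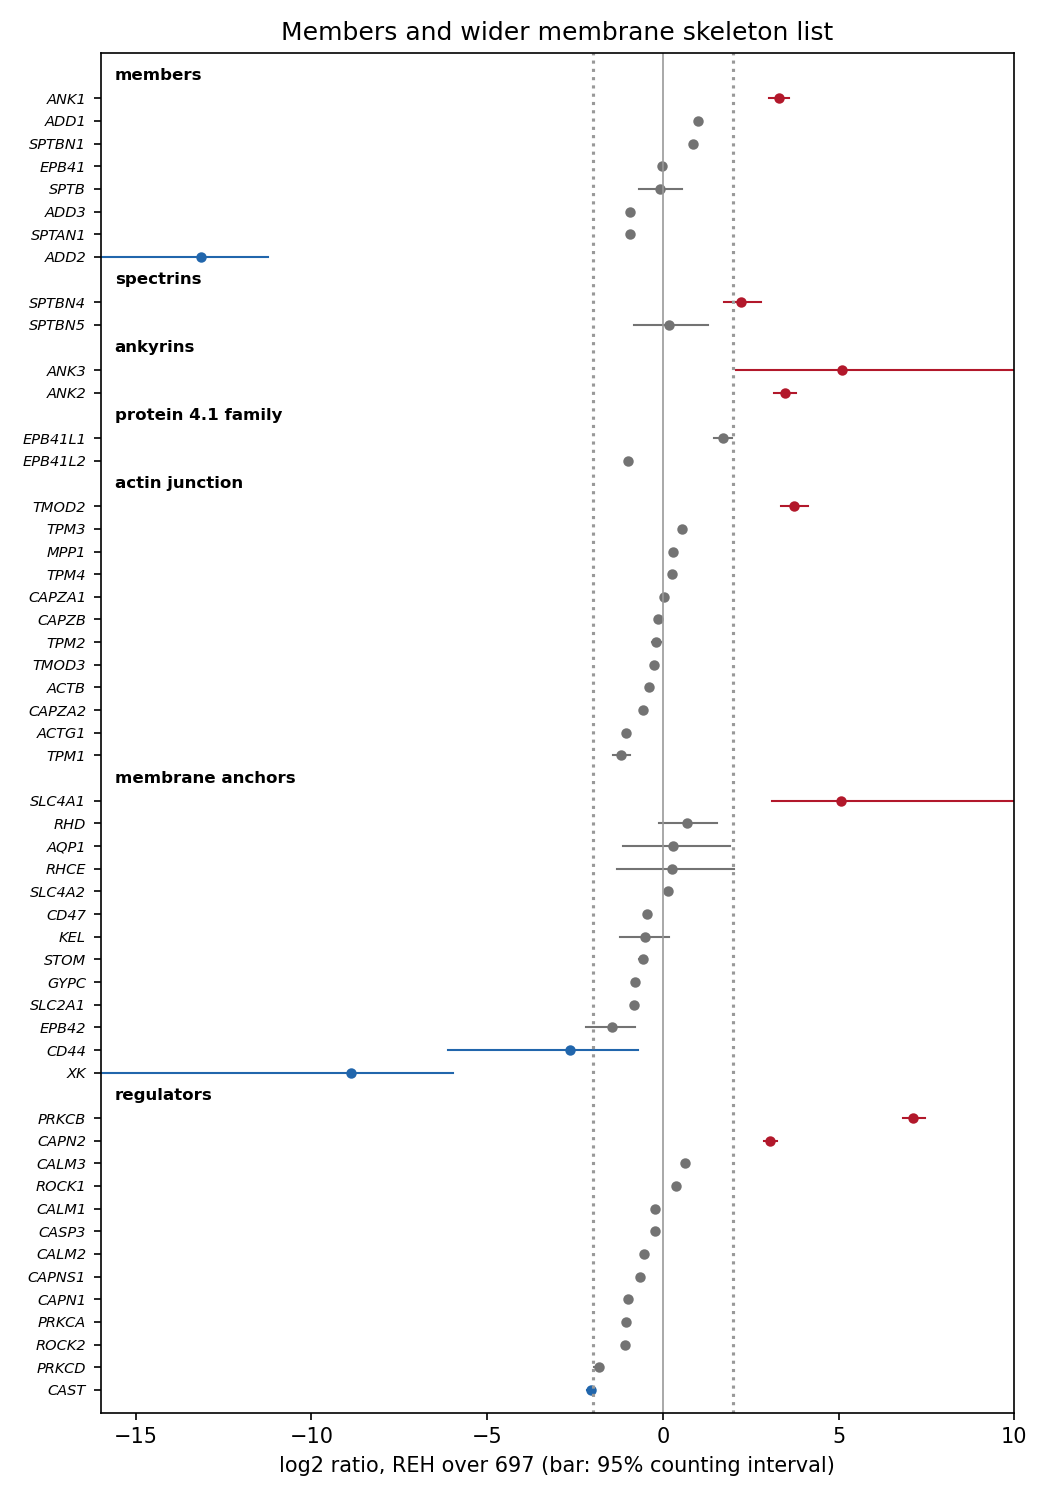
Log2 ratio of REH over 697 for the 8 members and the 44 tested genes of the wider list, by role, with the 95% counting interval as a bar (cut off at the edge of the plot) and dotted lines at 2 and -2. Red marks genes higher in REH and blue genes higher in 697; the actin junction genes lie within the threshold apart from *TMOD2*, while *ADD2* lies farthest left at -13.14.

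Of 15 genes of the actin junction, 12 were tested and 11 of them were within the threshold. The most abundant was *ACTG1*, gamma actin, with 2284 and 4689 CPM in REH and 697 and a log2 ratio of -1.04. *TMOD2*, a tropomodulin that caps the slow-growing filament end, was the exception, with 1180 and 65 reads in REH and 697 (log2 ratio 3.73, interval 3.38 to 4.12). Its more broadly expressed paralog *TMOD3* had 3867 and 3373 reads (log2 ratio -0.25). *DMTN*, dematin of the red cell junction, had 1 read in each library.

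Of 15 membrane anchors, 13 were tested, of which 1 was higher in REH and 2 in 697. *SLC4A1*, the band 3 exchanger that binds ankyrin, had 68 and 1 reads, with REH the higher (log2 ratio 5.07, interval 3.12 to 10.97). *XK*, a membrane protein of the Kell complex, had 0 reads in REH and 171 in 697, so that its log2 ratio lay at most at -5.96. *CD44*, the hyaluronan receptor, rested on few reads (2 and 11; log2 ratio -2.65, interval -6.12 to -0.71). The most abundant was *CD47*, with 163 and 225 CPM. Among the glycophorin and Rh genes, which are typical of the red cell membrane, levels differed widely. *GYPC*, a glycophorin that binds protein 4.1, had 4977 and 6370 reads, or 99.0 and 172 CPM. *RHD* had 44 and 20 reads, *RHCE* had 10 and 6, and *GYPB* and *RHAG* had at most 1 read in a library. For *RHCE* the first strand column gave 46 and 39 reads and the second 5 and 3, so its level is uncertain.

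All 13 regulators were tested, of which 2 were higher in REH and 1 in 697. *PRKCB*, protein kinase C beta, had 16704 and 87 reads in REH and 697, with a log2 ratio of 7.13 (interval 6.84 to 7.46). The kinase C genes did not share this, as *PRKCA* had 1990 and 3007 reads (log2 ratio -1.04) and *PRKCD* 700 and 1820 reads (log2 ratio -1.82). *CAPN2*, the large subunit of a calpain, a protease that cuts spectrin, had 3116 and 276 reads (log2 ratio 3.05, interval 2.87 to 3.24). *CAST*, the calpain inhibitor, had 757 and 2295 reads (log2 ratio -2.04, interval -2.16 to -1.93). Its exons overlap those of *ERAP1* on the opposite strand, the strand columns gave 546 and 1400 reads and 449 and 1314 reads, and in neither did it pass the threshold. *CAPN1* was lower in REH (136 and 271 CPM). The most abundant regulator in REH was *CALM3*, a calmodulin gene, with 519 and 337 CPM.

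Over all 8 members, 225 annotated genes start within 500 kb, of which 117 were tested. Of these, 9 passed the threshold, which 20.7% of all genes tested passed. Of the 117, 64 had a ratio above 0 and 53 below 0, against 52.1% above 0 over all genes tested. The surroundings of *SPTBN1* (7 tested genes) and *ADD3* (4 tested genes) held no gene past the threshold. Near *SPTAN1*, *CERCAM* passed it (685 and 2370 reads, log2 ratio -2.23). Near *SPTB* these were *HSPA2*, a heat shock protein gene (297 and 44 reads, 2.30), and *PLEKHG3* (150 and 730 reads, -2.72), whose exons overlap those of *SPTB*. Near *EPB41* they were *RAB42*, a small GTPase gene (206 and 9 reads, interval of the log2 ratio 3.12 to 5.22), and the small nucleolar RNA gene *SNORA73B* (18 and 101 reads, -2.90).

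**Figure D4:**
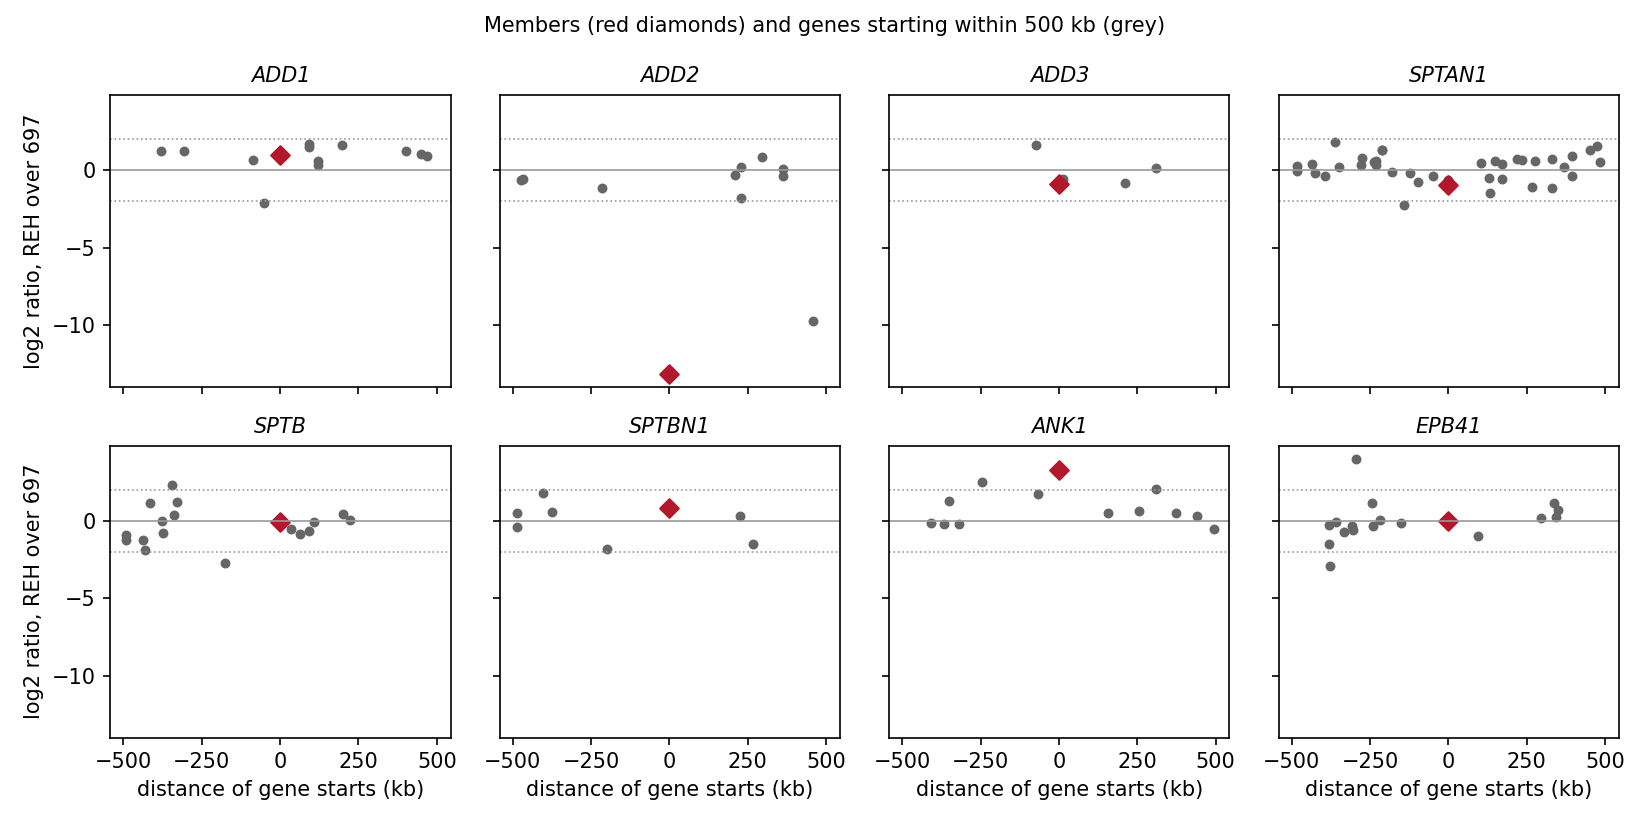
Log2 ratio of REH over 697 of each member (red diamond, at distance 0) and of the tested genes that start within 500 kb of it (grey points), by distance between gene starts on the chromosome in kb; dotted lines mark 2 and -2. *ADD2* lies far below 9 of its 10 tested neighbours, the other being *PAIP2B* with 0 reads in REH, whereas *ADD1* lies among neighbours of which 11 of 12 are above 0.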

How the data were processed

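The samples, 1 library of each line, were grouped by the cell line in their labels. The authors deposited raw read counts per gene, made with STAR from TruSeq libraries run on a NextSeq 500. Their methods name hg38 and poly(A) selection, whereas the labels name hg19 and ribodepletion with strand information, and the annotation is not given in the sources used here. Gene reads fell evenly on the strand columns (50.1% and 50.2% in the first), so the column that pools strands was used. STAR leaves out reads that are ambiguous between overlapping genes (4.58% of reads in REH, 4.41% in 697) or map to several places (10.8% and 15.4%).

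The IDs were matched to GENCODE 44 (51996 matched, 5777 did not), which gave symbols, positions and lengths. Genes that reached 10 reads in either line were scaled by TMM (factors 1.11 and 0.899; edgeR 4.0.16, R 4.3.3). A log2 ratio is REH over 697 with 0.5 reads added. Its 95% interval is exact (Clopper-Pearson), that of a family total approximate. With no replicates, no p-value was computed. Members and gene lists were chosen with earlier results of these data known. Some genes of the lists, and the spectrin family totals, are not reported here. Named genes are all members, the genes of the wider list past a log2 ratio of 2 in size and the most abundant per role, neighbours past it, and the 3 genes nearest to ADD2; others were named after their values were seen. The ratio was checked on simulated libraries. Python 3.11.15, scipy 1.17.1 and DESeq2 1.42.0 (size factors, as an alternative) were also used.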

Additional observations from a re-analysis of the deposited data

How the results depend on the processing

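Over 19 results, 87 of 118 values under the alternatives stayed within the counting interval or, for numbers of genes, within 1.5 times. No ratio past the threshold changed sign, and 1 member was higher in REH and 1 in 697 under each alternative run. At a threshold of 1 this rests on a narrow margin, as ADD1 lay just under it at 0.998. Without TMM scaling every ratio shifted by 0.31 on the log2 scale, the median of all genes included, and SPTB and EPB41 came to lie above 0. The log2 ratios then were 1.31 for ADD1, -0.61 for ADD3, -0.62 for SPTAN1, 1.16 for SPTBN1, 3.60 for ANK1 and 0.28 for EPB41, and the family totals were -0.63 (adducins), 3.64 (ankyrins) and -0.30 (protein 4.1). DESeq2 size factors gave -0.96 for SPTAN1 and 0.82 for SPTBN1, and a total of -0.64 for protein 4.1. With 5 reads added, ADD2 was at -11.14. The first strand column gave -0.90 for SPTAN1, 0.88 for SPTBN1 and -0.58 for protein 4.1. The second gave 3.62 for ANK1, 3.61 for the ankyrins and -0.58 for protein 4.1. With the longest transcript as length, the totals were -0.63 (adducins) and -0.57 (protein 4.1). For the ratios between genes this length was added after seeing the data, and gave 1.24 and 0.218 for ADD1 over the sum of ADD2 and ADD3 in REH and 697.

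Of the wider list, 3 genes were higher in 697, but 1 in either strand column and 9 at a threshold of 1. Over all genes, 2396 were higher in REH and 1560 in 697. With a minimum of 50 reads these were 1477 and 1036, at a threshold of 1 they were 4293 and 3336, and with a minimum of 1 read 4410 were higher in 697. The changes with another minimum or threshold follow from the filters themselves, those with TMM left out from the shift given. In the strand columns the filters were the same, and CAST was among the genes that no longer passed. No paired analysis was possible because there was 1 library of REH and 1 of 697, so that none could be left out either. Depth limits SPTB, ANK3, CD44 and ADD2 in REH, whose ratios rest on few reads.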

Other observations

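*TMOD1*, the tropomodulin of red cells, was counted with 2 reads in REH and 0 in 697 when strands were pooled. The separate strand columns gave 751 and 693 reads in REH and 341 and 328 in 697. Its exons overlap those of *TSTD2* on the opposite strand, so these libraries leave its level undetermined. It was singled out after its values were seen.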
